A study of Homo sapiens with 12 samples.

Results

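The comparison described here is that between MM.1S cells treated with PIM447 together with pomalidomide and dexamethasone (PIM-Pd) and MM.1S cells treated with PIM447 alone (PIM), and asks what pomalidomide-dexamethasone added to PIM447 in the transcriptome. MM.1S is an established human multiple myeloma cell line. The 6 arrays of the comparison, 3 PIM-Pd and 3 PIM, were chosen by the treatment label from the 12 arrays of the series, and the other 6 were 3 arrays of cells treated with pomalidomide-dexamethasone alone (Pd) and 3 of untreated cells (Control). The PIM cells had received PIM447 at 100 nM and were collected at 24 h. The PIM-Pd cells had received PIM447 at 100 nM with pomalidomide at 200 nM and dexamethasone at 5 nM, and were collected at 10 h. The Pd cells had the same doses of pomalidomide and dexamethasone, without PIM447, for 15 h. Viability in the treated cultures was between 74% and 81%, so all 3 treatments were sub-lethal. All cells were of 1 line, grown in RPMI-1640 with inactivated serum, and replicates 1 to 3 came from independent experiments whose number pairs the arrays of the 4 groups. Since the PIM-Pd and PIM cells were collected at different times, the addition of pomalidomide-dexamethasone and the shorter exposure cannot be told apart in any value below, and in RNA from whole cultures neither can a change in every cell and a change in the mix of living cells.

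PIM447 inhibits the PIM kinases, serine/threonine kinases that promote survival, cap-dependent translation and cell cycle entry in myeloma plasma cells, and that share substrates with the mTORC1 pathway. Pomalidomide binds cereblon, the substrate receptor of a CUL4-DDB1 ubiquitin ligase, and redirects it to the lymphoid transcription factors Ikaros (*IKZF1*) and Aiolos (*IKZF3*), whose degradation is known to be followed in myeloma cells by loss of *IRF4* and *MYC* and by induction of interferon-stimulated genes. Dexamethasone binds the glucocorticoid receptor, which enters the nucleus and activates genes such as *FKBP5*, *TSC22D3* and *DDIT4*. *IRF4* and *MYC* are the transcription factors on which myeloma cells depend, and *MYC* is known to drive ribosome production, nucleotide and lipid synthesis and entry into S phase.

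The arrays gave log2 RMA levels, which are background-corrected and quantile-normalised signals on a log2 scale, for 17710 genes, so that a difference of 1 is a 2-fold change. A gene was called when its limma test had a Benjamini-Hochberg adjusted p under 0.05. The test took replicate number as a block in 1 fit of all 12 arrays. Each SE of a difference comes from that fit and does not measure the spread between the 3 pair differences. The genes are listed by Ensembl number, and a symbol was available here for 1901 of them (10.7%), those in the gene tables of the study. As those tables hold genes that the study had selected on these same arrays for a change against Control, the counts over named genes are not independent evidence, and each is to be read against the share of all named genes that was called. List members without such a change have no name here, so a list that moved wholly in a single direction is not independent evidence either. The lowest correlation between any 2 of the 12 arrays was 0.977 over all genes, and array medians lay between 4.81 and 4.89. Of 9 plasma cell markers, 3 were named, and all 3 were above the array medians on every array, with *CD38* between 8.16 and 9.03, *SLAMF7* between 9.37 and 10.13 and *IRF4* between 8.89 and 10.24. The T cell marker *CD3E*, the only marker of another cell type with a name here (of 18 listed), was between 3.82 and 4.88 and did not pass the test between PIM-Pd and PIM (adjusted p = 0.256).

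Compared with PIM447 alone, 1262 of the 17710 genes were called in PIM-Pd (7.13%), 656 of them higher (3.7%) and 606 lower (3.42%). At least 2-fold differences were more often rises, with 122 genes higher (0.689%) and 52 lower (0.294%), and at least 4-fold differences were rises in all 10 cases. The 174 genes past 2-fold moved the same way in all 3 pairs with no overlap between the groups (17.8% of all 17710 genes had none), which their selection on these arrays made nearly certain. The median difference over all genes was −0.01, and the median SE was 0.13. Among the 1901 named genes 912 were called (48%), of which 492 were higher (25.9%) and 420 lower (22.1%). Names were available for 171 of the 174 genes past 2-fold, and the other 3, ENSG00000226025_at (−1.17), ENSG00000181804_at (−1.03) and ENSG00000165259_at (1.01), are given by probe set only. The number of calls fell to 345 when replicate 3 was left out, to 548 without replicate 1 and to 805 without replicate 2, and to 559 when the fit held only the 6 arrays compared.

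**Figure D1:**
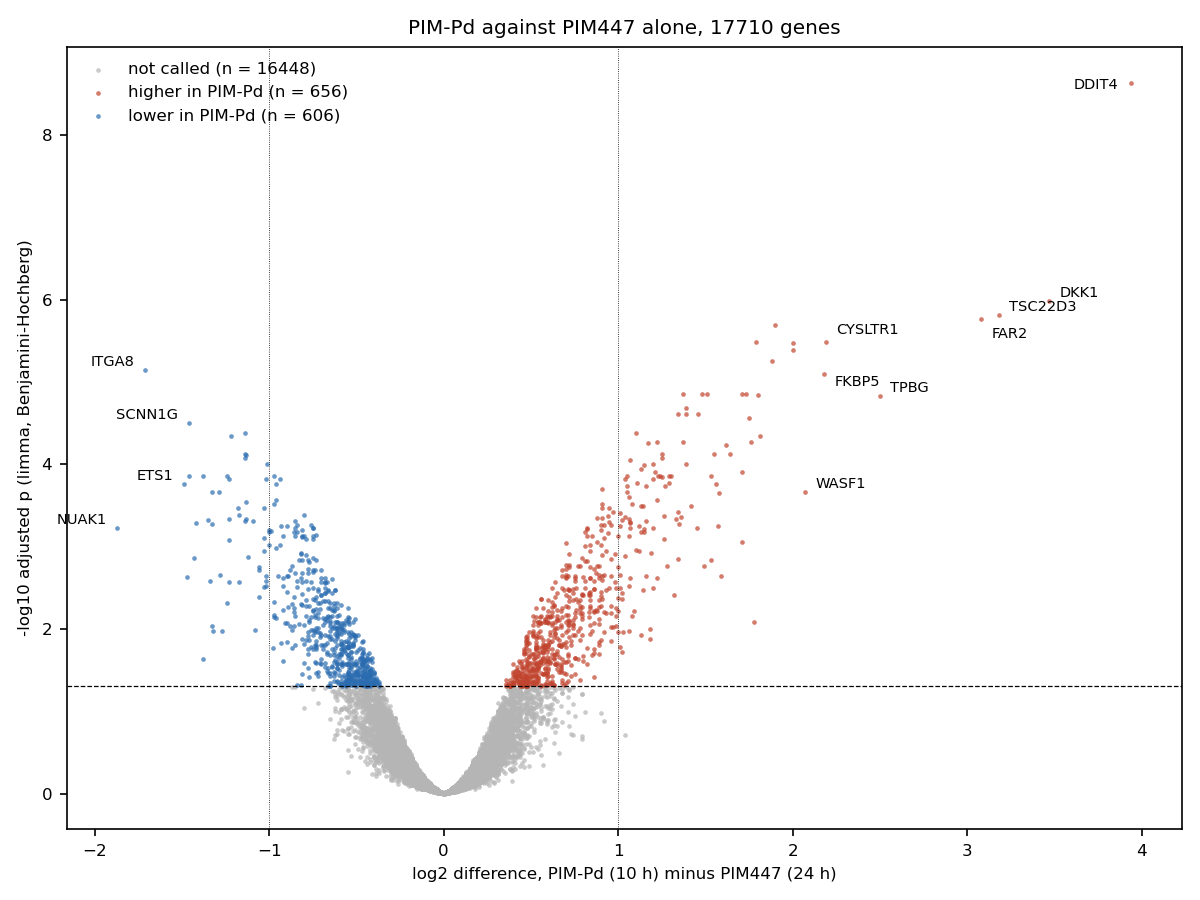
Each point is 1 of the 17710 genes, with the log2 difference between PIM-Pd and PIM on the x axis and −log10 of the limma adjusted p on the y axis; the dashed line is an adjusted p of 0.05, the dotted lines are 2-fold, red points were called higher (656) and blue points lower (606). *DDIT4*, *DKK1*, *TSC22D3* and *FAR2* lie apart on the right, past a difference of 3, while no fall reached −2.

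Glucocorticoid-induced genes gave several of the largest rises. *DDIT4*, which encodes REDD1, an inhibitor of mTORC1 signalling, read 5.42, 5.27 and 5.16 on the PIM arrays of replicates 1, 2 and 3 and 9.10, 9.16 and 9.39 on the PIM-Pd arrays. The groups were nearly 4 log2 units apart, with no array between them, and the difference was 3.94 ± 0.13 (SE, n = 3 pairs; 15.3-fold, adjusted p = 2.3e-09). *TSC22D3*, which encodes the glucocorticoid-induced leucine zipper GILZ, read 5.20, 6.02 and 5.80 with PIM447 and 8.89, 8.63 and 9.06 with PIM-Pd. All PIM-Pd arrays were well above all PIM arrays, with a difference of 3.18 ± 0.18 (9.07-fold, adjusted p = 1.54e-06). *FKBP5*, a co-chaperone of the glucocorticoid receptor that limits its activity, read 8.03, 7.59 and 8.37 and then 9.81, 10.37 and 10.36. Here too the groups did not overlap (difference 2.18 ± 0.16, 4.54-fold, adjusted p = 7.9e-06). *TXNIP*, an inhibitor of thioredoxin and of glucose uptake, rose by 1.18 ± 0.24 (adjusted p = 0.0101), a call that was lost without replicate 3 (adjusted p = 0.159). In all, 7 of the 17 genes of the glucocorticoid list had a name here, of which 4 rose (25.9% of all named genes did), none fell and 3 did not pass the test. The last were *KLF9* (0.53, adjusted p = 0.0531), *SGK1* (−0.47, 0.137) and *ERRFI1* (−0.40, 0.226). The median of the 7 was 1.18, beside 0.15 over all named genes and −0.01 over all genes.

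**Figure D2:**
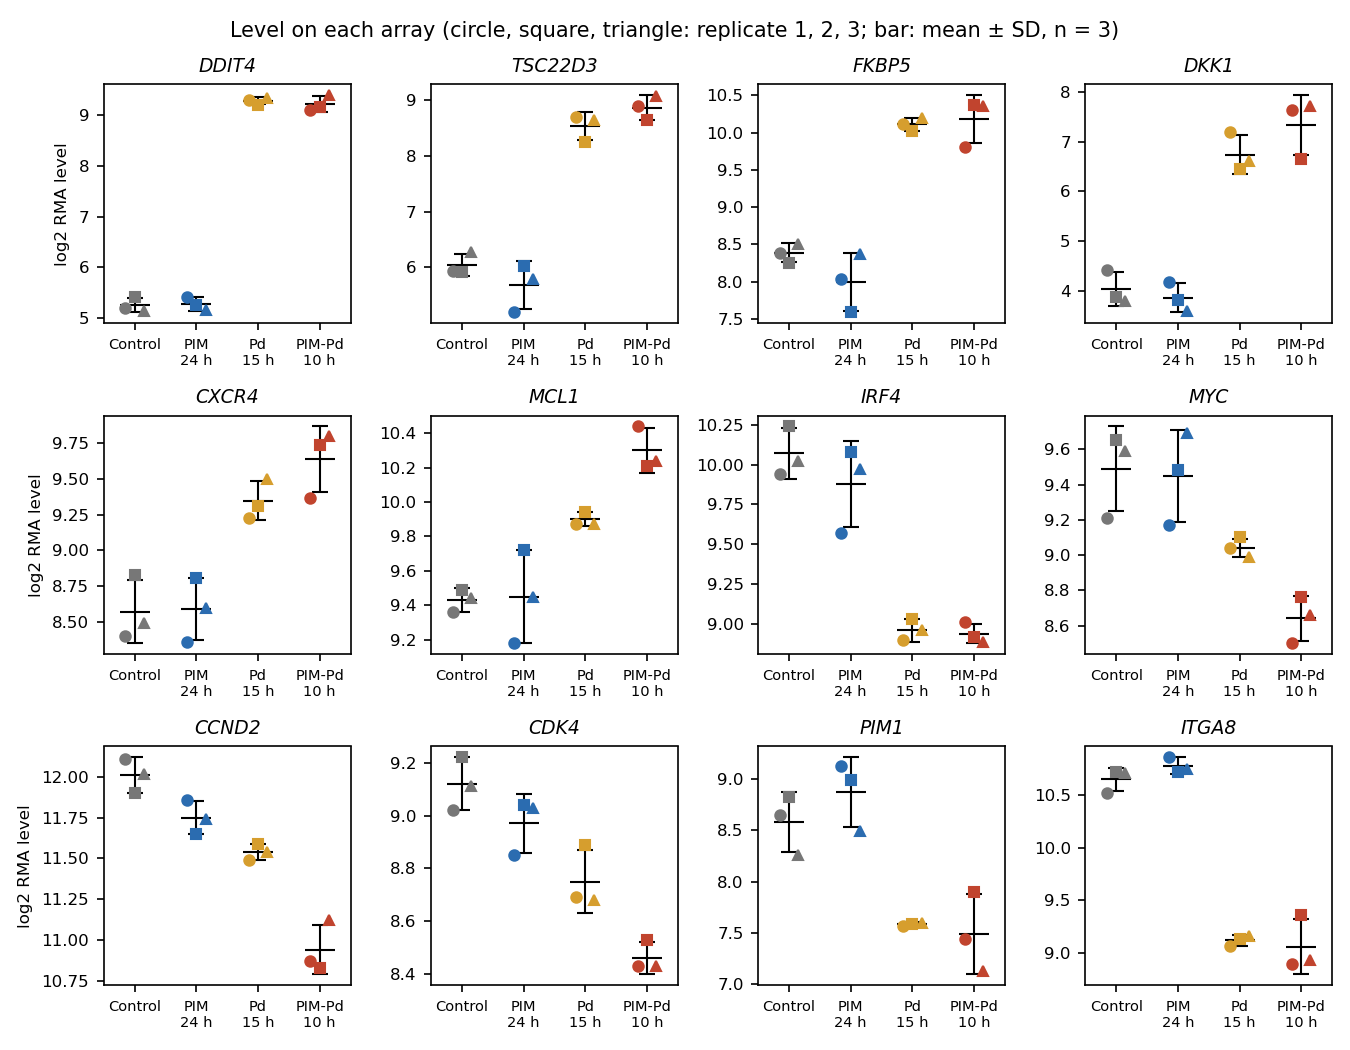
Each panel gives the log2 RMA level of 1 gene on each of the 12 arrays, by group, with circles, squares and triangles for replicates 1, 2 and 3 and a bar for the mean ± SD (n = 3); the y axes differ between panels and do not start at 0. In the rising genes *DDIT4*, *TSC22D3*, *FKBP5*, *DKK1*, *CXCR4* and *MCL1*, and in the falling genes *IRF4*, *MYC*, *CCND2*, *CDK4*, *PIM1* and *ITGA8*, the PIM-Pd and PIM arrays do not overlap.

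Other large rises were those of *DKK1*, *FAR2*, *TPBG* and *CYSLTR1*. *DKK1*, a secreted inhibitor of Wnt signalling known for blocking osteoblast differentiation in myeloma, read 4.17, 3.81 and 3.60 with PIM447 and 7.64, 6.64 and 7.71 with PIM-Pd. Replicate 2 was the lowest of the PIM-Pd arrays and still far above all PIM arrays. The difference was 3.47 ± 0.19 (11.1-fold, adjusted p = 1.04e-06). The PIM levels of *DKK1*, and those of *TPBG* below, lay under the array medians (4.81 to 4.89), so these rises started from low levels. *FAR2*, a fatty acyl-CoA reductase, read 6.05, 5.84 and 6.29 and then 9.15, 8.70 and 9.57, a difference of 3.08 ± 0.18 (adjusted p = 1.72e-06) with no overlap. *TPBG*, a membrane glycoprotein also known as the oncofetal antigen 5T4, read 4.49, 4.18 and 4.12 and then 6.76, 6.33 and 7.18. *CYSLTR1*, a receptor for cysteinyl leukotrienes, read 7.62, 8.03 and 8.04 with PIM447 and 10.24, 9.81 and 10.21 with PIM-Pd. The groups did not overlap in either gene, and the differences were 2.50 ± 0.20 (adjusted p = 1.48e-05) and 2.19 ± 0.14 (adjusted p = 3.31e-06).

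The remaining genes among the 12 largest rises were *WASF1*, a regulator of actin (2.07 ± 0.24), *ATP2B4*, a plasma membrane calcium pump (2.00 ± 0.13), *ANTXR1*, a membrane receptor that binds collagen (2.00 ± 0.14), *MEI1* (1.90 ± 0.12), and *NT5E*, which encodes CD73, the ectoenzyme that makes adenosine from AMP (1.88 ± 0.13). Their adjusted p-values lay between 2.04e-06 for *MEI1* and 0.000218 for *WASF1*. None of the 12 lost its call when a replicate was left out. *WASF1* read between 3.42 and 3.90 on the PIM arrays, below the array medians.

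Some interferon-stimulated genes rose in PIM-Pd. Of the 31 on the list, 13 were named; 7 rose (25.9% of all named genes did), none fell, 6 did not pass the test, and all 13 differences were above 0, with a median of 0.63. *ISG20*, an exonuclease that degrades viral RNA, rose from 6.78 ± 0.22 to 8.49 ± 0.39 (SD, n = 3), a difference of 1.71 ± 0.18 (SE, adjusted p = 0.000123). *IFIT3*, a member of the family that binds viral RNA, rose by 1.59 ± 0.26 (adjusted p = 0.00227), and was among the more variable rises, with PIM-Pd arrays at 5.01, 5.50 and 6.43. *DTX3L*, a ubiquitin ligase that acts with *PARP9*, rose by 0.98 ± 0.14 (adjusted p = 0.00122), and *OAS1*, which makes the oligoadenylates that activate RNase L, rose by 0.90 ± 0.13 (adjusted p = 0.000959). The other 3 called members were *STAT2*, a subunit of the interferon-activated factor ISGF3 (0.83), and the RNA sensors *RIGI* (0.71) and *IFIH1* (0.50). The 6 members that did not pass ranged from 0.19 (*IFI6*) to 0.63 (*MX2*). Without replicate 3 the number called was 4, and *IFIT3* was then not called (adjusted p = 0.0521).

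An interferon response element (GAAA, any 2 bases and GAAA again, on either strand) was sought from 250 bases before to 50 bases after the transcription start in RefSeq (GRCh38.p14). Of the 24 listed interferon-stimulated genes with a promoter in the reference table, 17 held it (70.8%), beside 4.38% of 27305 genes. Among the 17 were the called *DTX3L*, *IFIH1*, *IFIT3* and *ISG20* and the uncalled *IFI6*, *OAS3*, *PARP9* and *TNFSF10*, and the others had no name here. The called *OAS1*, *STAT2* and *RIGI* and the uncalled *MX2* and *SP110* were not among them. Whether matches went with rises was not tested. The matches of 3 called members are given here, 5′ to 3′ along the gene, with the element in capitals (where it reads TTTC, it lies on the other strand). Overlapping matches are in 1 run of capitals. The windows shown lie before the annotated start, and *IFIT3* has 2 annotated starts, with the matches of each given. *IFIT3* and *IFIH1* have more than 1 match and *ISG20* has 1. A match is only a stretch of letters, and binding was not measured. The full palindrome of the glucocorticoid response element was found in none of the 15 glucocorticoid-induced genes with a promoter in the table, and in 0.00366% of all genes, so it said nothing of the receptor in this short window.
IFIT3, chr10:89327829-89327896, plus strand: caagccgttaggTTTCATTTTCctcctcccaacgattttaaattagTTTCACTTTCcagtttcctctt
IFIT3, chr10:89332423-89332499, plus strand: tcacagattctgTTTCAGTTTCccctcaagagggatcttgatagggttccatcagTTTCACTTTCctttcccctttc
ISG20, chr15:88638935-88638968, plus strand: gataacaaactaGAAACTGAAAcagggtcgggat
IFIH1, chr2:162318685-162318855, minus strand: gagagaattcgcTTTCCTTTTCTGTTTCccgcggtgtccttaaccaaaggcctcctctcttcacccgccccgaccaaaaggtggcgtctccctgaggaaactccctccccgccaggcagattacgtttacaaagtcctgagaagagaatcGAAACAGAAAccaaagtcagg

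Antigen presentation genes, a list added after other values had been seen, had 8 of 17 members named, of which 3 rose (beside 25.9% of all named genes), none fell and 5 did not pass. The count was 1 without replicate 1. *CIITA*, the transactivator of MHC class II genes, rose by 1.36 ± 0.17 (adjusted p = 0.000436), *TAP1*, a subunit of the peptide transporter, by 0.72 ± 0.13 (0.00405) and *HLA-E*, a class I molecule read by NK cells, by 0.53 ± 0.13 (0.032). The class II genes named here, *HLA-DRA*, *HLA-DPA1* and the invariant chain *CD74*, differed by 0.31, 0.22 and 0.16, and none passed the test. The call of *TAP1* was lost without replicates 1 or 2 (adjusted p up to 0.062) and that of *HLA-E* without replicates 1 or 3 (up to 0.229).

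Transcripts of the drug receptor and of 1 of its substrates were higher in PIM-Pd. *IKZF1*, a transcription factor whose protein pomalidomide degrades, read 8.03, 8.87 and 8.50 with PIM447 and 9.27, 9.36 and 9.27 with PIM-Pd. The PIM arrays were spread far more widely than the PIM-Pd arrays, the groups did not overlap, and the difference was 0.84 ± 0.14 (adjusted p = 0.00353). *IKZF3*, its paralogue and the other substrate, read 7.92, 7.96 and 8.26 and then 8.45, 8.33 and 8.47. It was higher in PIM-Pd in each pair, but the difference of 0.37 ± 0.11 did not pass the test (95% interval 0.14 to 0.61, adjusted p = 0.0557). *CRBN*, which encodes cereblon, read 7.43, 7.31 and 7.21 and then 7.78, 7.60 and 7.67, a small difference without overlap (0.36 ± 0.10, adjusted p = 0.0421). The other members of the list with a name were the ligase scaffold *CUL4A* (−0.19) and the translation termination factor *GSPT1* (−0.26), and neither passed. Of the 5 named members 2 rose, beside 25.9% of all named genes. Without replicate 3 no member was called, with adjusted p = 0.0688 for *IKZF1*, and *CRBN* lost its call whichever replicate was left out (adjusted p 0.132 to 0.325).

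*IRF4* and *MYC* were lower in PIM-Pd than with PIM447 alone. *IRF4*, the transcription factor of plasma cell identity, read 9.57, 10.08 and 9.97 on the PIM arrays and 9.01, 8.92 and 8.89 on the PIM-Pd arrays. Replicate 1 had the lowest PIM level and the smallest pair difference (−0.56, against −1.16 and −1.08), and the difference was −0.93 ± 0.12 (1.91-fold, adjusted p = 0.000556). *MYC* read 9.17, 9.48 and 9.69 with PIM447 and 8.50, 8.76 and 8.66 with PIM-Pd. The groups did not overlap, the difference was −0.81 ± 0.12 (1.75-fold, adjusted p = 0.00145), and it missed the threshold without replicate 3 (adjusted p = 0.0539). *MXI1*, a repressor that competes with *MYC* for MAX, fell by 0.66 (adjusted p = 0.00455), while the related *MXD1* (0.49) and *MXD4* (0.07) did not pass. Of 13 genes on the plasma cell and *MYC* network list, 5 were named, and 3 of those fell (22.1% of all named genes did). *MXI1* was not called without replicates 1 or 3 (adjusted p up to 0.0565).

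Most ribosome biogenesis factors with a name fell. Of 30 on the list 21 were named, and 14 of the 21 fell, none rose and 7 did not pass. All 21 differences were below 0, from −1.23 to −0.26 with a median of −0.68, whereas 22.1% of all named genes fell. The falls reached from RNA polymerase I to processing and modification of rRNA. *POLR1B*, the second largest subunit of polymerase I, fell from 6.34 ± 0.14 to 5.39 ± 0.04 (difference −0.95 ± 0.15, adjusted p = 0.00228). *UTP20*, a part of the small subunit processome, fell from 6.84 ± 0.21 to 5.66 ± 0.31 (difference −1.18 ± 0.14, adjusted p = 0.00034), and *WDR12*, which acts with *PES1* in maturation of the large subunit, from 6.42 ± 0.27 to 5.19 ± 0.09 (difference −1.23 ± 0.17, adjusted p = 0.000825). *DDX21*, a nucleolar RNA helicase, fell by 1.02 (adjusted p = 0.00228). *FBL* encodes fibrillarin, which methylates rRNA, and read 6.98, 6.92 and 6.97 with PIM447 and 6.35, 6.75 and 6.48 with PIM-Pd. Its difference of −0.43 ± 0.11 was smaller than the list median, and replicate 2 moved least (adjusted p = 0.035). *FBL* lost its call without replicates 1 or 3 (adjusted p up to 0.289).

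The size of this fall differed between the pairs, with medians over the 21 genes of −0.95, −0.45 and −0.74 for replicates 1, 2 and 3. The number called moved with it, to 6 of the 21 without replicate 1, 15 without replicate 2 and 4 without replicate 3. The PIM-Pd and PIM levels did not overlap in 15 of the 21. Of all 17710 genes 17.8% had no overlap, but the 21 were named genes, which the study had selected on these arrays. Of named genes 48% were called, beside 7.13% of all genes. Their share without overlap was not computed, so the count of 15 cannot be read as particular to this list. *UTP20*, *WDR12*, *DDX21* and *POLR1B* were among the 15 and kept their calls in all 3 of those fits. These 4 had been picked for the smallest adjusted p on the list in this same comparison, which favoured both outcomes.

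The E-box CACGTG, the sequence bound by MYC-MAX and related factors, lay in the promoter window of 12 of the 23 listed ribosome biogenesis factors with a promoter in the reference table (52.2%), beside 8.77% of all 27305 genes there. The matches of *UTP20* and *DDX21*, with large falls, and of *NAT10*, an RNA acetyltransferase with a difference of −0.55, are shown 5′ to 3′ along the gene, with the E-box in capitals. The reverse complement of CACGTG is CACGTG itself. The 12 also held *LYAR* (−0.62) and *NOP2* (−0.27), which did not pass the test. They did not hold *WDR12* (−1.23) or *POLR1B* (−0.95), which fell. A match is only a stretch of letters. Binding was not measured, and whether matches went with falls was not tested.
UTP20, chr12:101280083-101280104, plus strand: cttttttccgtcCACGTGaccc
NAT10, chr11:34105602-34105628, plus strand: aatgcgcttgcgCACGTGctgtctacc
DDX21, chr10:68956604-68956633, plus strand: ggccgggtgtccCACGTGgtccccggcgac

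Few translation factors had a name here (3 of 24), of which 2 fell (22.1% of all named genes did). *EIF4G1*, the scaffold of the cap-binding complex, fell by 0.55 ± 0.10 (adjusted p = 0.00557), *EIF5A*, an elongation factor, fell by 0.45 (0.0331), and *EIF4EBP1*, the mTORC1 substrate that holds back EIF4E, differed by −0.45 without passing (0.0647). Among regulators of mTORC1, of which 3 of 17 were named, the rise of *DDIT4* stood beside falls of *DEPTOR*, an inhibitor of the kinase (−0.97 ± 0.17, adjusted p = 0.00469), and of *MLST8*, a subunit of the complex (−0.40 ± 0.10, adjusted p = 0.0356). *DDIT4* and *DEPTOR* both act against mTORC1 and moved in opposite directions. The list had 1 rise and 2 falls, beside 25.9% and 22.1% of all named genes. The calls of *EIF4G1* and *DEPTOR* were lost without replicates 1 or 3 (adjusted p up to 0.131 and 0.105), and those of *EIF5A* and *MLST8* whichever replicate was left out (0.0837 to 0.216 and 0.132 to 0.252). SR splicing factors, a list added later with 4 of 12 members named, fell in 3 cases (22.1% of all named genes did). The 3 were *SRSF2* (−1.06 ± 0.16, adjusted p = 0.00176), *SRSF6* (−0.84 ± 0.14, 0.00263) and *SRSF7* (−0.46 ± 0.11, 0.0264), and *SRSF1* differed by −0.26 without passing. Without replicate 3, *SRSF2* was the only 1 of these that was called (adjusted p = 0.0675 for *SRSF6* and up to 0.243 for *SRSF7*).

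**Figure D3:**
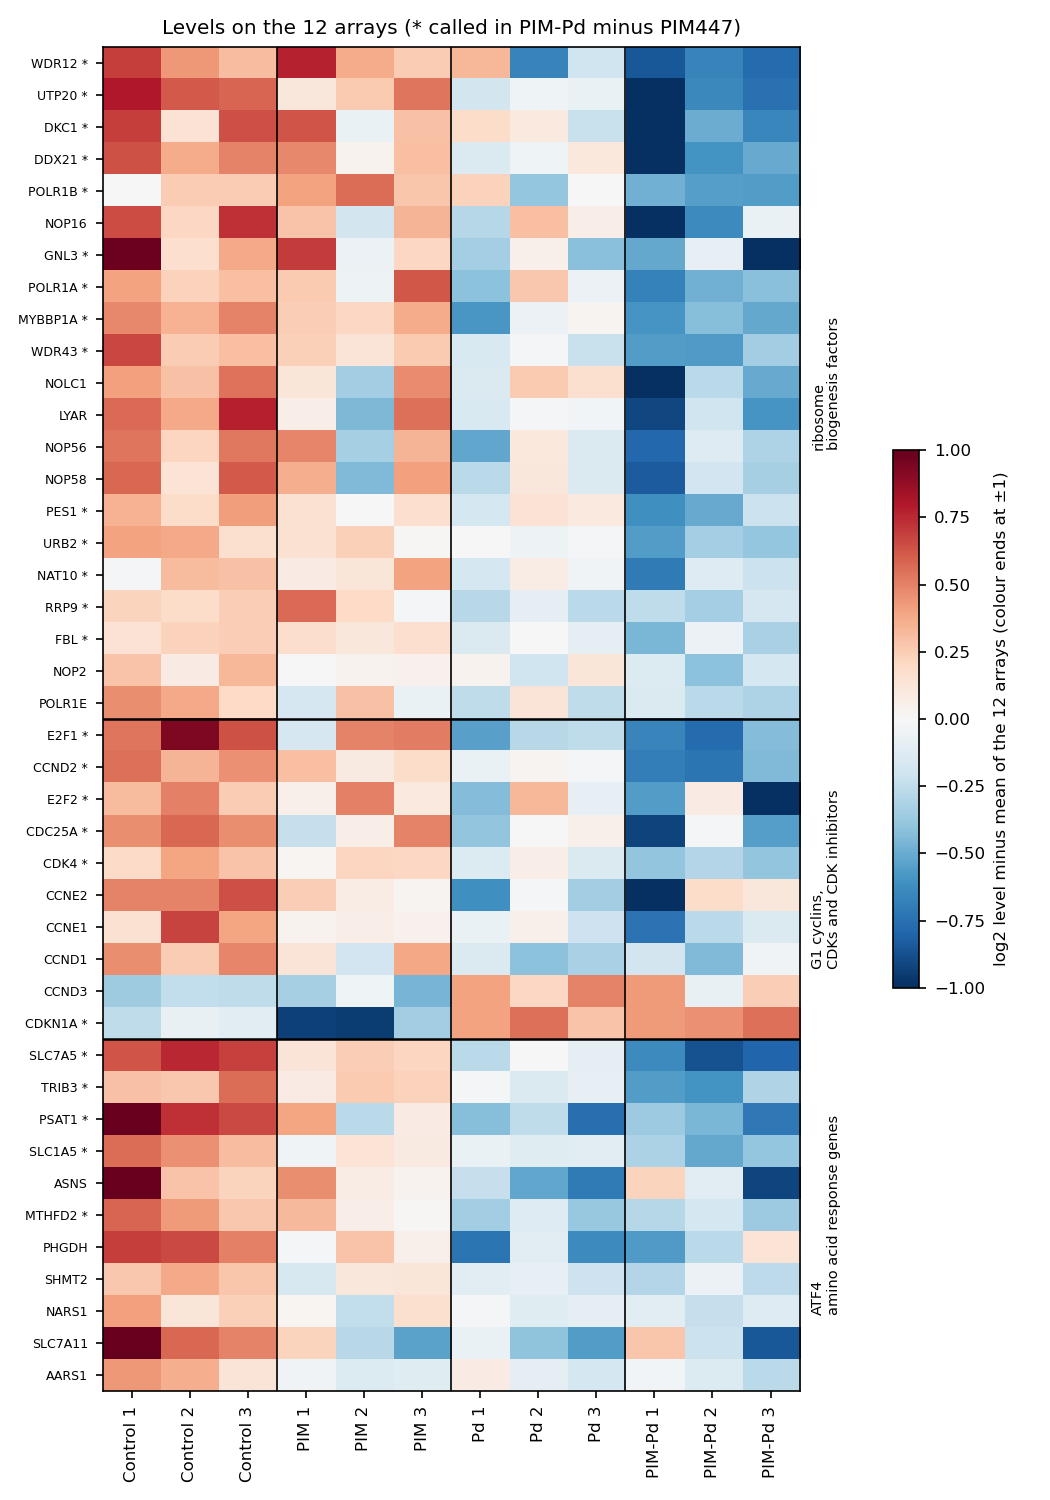
Rows are the named members of 3 lists (ribosome biogenesis, G1 cyclins and CDKs, ATF4 amino acid response) and columns the 12 arrays; the colour is the log2 level minus the gene's mean over the 12 arrays, from blue (1 or more below) to red (1 or more above), and an asterisk marks a call in PIM-Pd minus PIM. Most rows are red to pale in Control and PIM and blue in PIM-Pd, with *CCND3* and *CDKN1A* the other way, and PIM-Pd replicate 1 is darkest in many rows of the ribosome biogenesis block.

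Of the named genes of the G1 phase 5 fell and 1 rose. *CCND2*, the D cyclin that MM.1S cells express at a high level, read 11.86, 11.65 and 11.74 with PIM447 and 10.87, 10.83 and 11.12 with PIM-Pd. The groups did not overlap and the difference was −0.81 ± 0.11 (1.76-fold, adjusted p = 0.000739). *CDK4*, the kinase that D cyclins activate, read 8.85, 9.04 and 9.03 and then 8.43, 8.53 and 8.43. The PIM-Pd arrays lay below every other array of the series, and the difference was −0.51 ± 0.10 (adjusted p = 0.00759). *E2F1*, the transcription factor released when *CDK4* phosphorylates RB, fell by 0.90 (adjusted p = 0.00228), and *CDKN1A*, the CDK inhibitor p21, rose by 1.22 ± 0.14 (2.32-fold, adjusted p = 0.000274). In all, 10 of 17 genes of this list were named, of which 5 fell (beside 22.1% of all named genes), 1 rose (beside 25.9%) and 4 did not pass (*CCND1*, *CCND3*, *CCNE1* and *CCNE2*, between −0.45 and 0.47). With only the 6 arrays compared, and also without replicate 1, there were 2 falls and 1 rise, and without replicate 3 there was 1 of each. Of these calls only *CCND2* and *CDKN1A* held without each replicate in turn; *CDK4* was not called whichever was left out (adjusted p 0.0587 to 0.143) and *E2F1* not without replicate 3 (0.0503).

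Of the DNA replication genes 16 of 37 were named, with 5 falls, 1 rise and 10 that did not pass. Of all named genes 22.1% fell and 25.9% rose. *UHRF1*, which carries DNA methylation through replication, fell by 1.02 (adjusted p = 0.00265), *MCM6*, a subunit of the replicative helicase, by 0.86 (0.00553) and *CDC6*, a loader of that helicase, by 0.74 (0.0253), whereas *TK1*, thymidine kinase, rose by 0.55 (0.00825). The pairs differed here, with medians of −0.67 and −0.49 over the 16 genes in replicates 1 and 3 and of about 0 in replicate 2, and *UHRF1* was the only 1 of these 4 that was called without each replicate in turn. Without replicates 1 or 3 there was 1 fall on the list, and without replicate 2 there were 8. Only 2 of 30 mitotic genes had a name, and both rose (25.9% of all named genes did). They were *CDC25C*, the phosphatase that activates CDK1 (0.58, adjusted p = 0.0356), and *ASPM*, a spindle pole protein (0.54, 0.0216). Both calls were lost whichever replicate was left out (0.0536 to 0.234 and 0.0648 to 0.222). The calls of *MCM6* and *CDC6* were lost without replicates 1 or 3 (adjusted p up to 0.11 and 0.213), and that of *TK1* whichever was left out (0.0547 to 0.0948).

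Among lipid synthesis genes falls prevailed, with 12 of 21 named, 6 falls (beside 22.1% of all named genes), no rise and all 12 differences below 0 (median −0.41). *FASN*, fatty acid synthase, fell from 7.77 ± 0.24 to 6.64 ± 0.07, a difference of −1.13 ± 0.13 (2.19-fold, adjusted p = 0.000287). *ACACA*, acetyl-CoA carboxylase, read 5.33, 5.78 and 6.08 with PIM447 and 4.99, 5.11 and 5.26 with PIM-Pd. The groups did not overlap, though the lowest PIM array came close to the highest PIM-Pd array, and the difference was −0.61 ± 0.16 (adjusted p = 0.0424). In the sterol branch *HMGCS1* fell by 0.65 (adjusted p = 0.0122), and *ACLY*, which makes cytosolic acetyl-CoA, fell by 0.42 (0.0329). The number of falls was between 1 and 3 with a replicate left out, and 2 in the fit without pairing. *FASN* was called in each of those fits, while *ACACA* and *ACLY* lost their calls whichever replicate was left out (adjusted p 0.0508 to 0.219 and 0.154 to 0.175) and *HMGCS1* without replicates 2 or 3 (up to 0.126).

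In glycolysis 8 of 22 members were named, with 2 rises, 2 falls and 4 that did not pass. These counts were near the shares of all named genes (25.9% higher and 22.1% lower). *PFKFB2*, which makes the activator of phosphofructokinase, rose by 1.80 ± 0.15 (3.48-fold, adjusted p = 1.43e-05), and the glucose transporter *SLC2A3* (GLUT3) rose by 0.77 ± 0.16 (0.0105). *PFKM*, the muscle-type phosphofructokinase, read 7.45, 7.27 and 7.39 with PIM447 and 6.53, 6.81 and 6.87 with PIM-Pd. All PIM-Pd arrays were lower, and the difference was −0.63 ± 0.13 (adjusted p = 0.00921). *PGK1*, phosphoglycerate kinase, read 9.55, 9.07 and 9.26 and then 8.90, 8.99 and 8.84. It was lower in each pair, but by little in replicate 2, and the difference of −0.38 ± 0.13 did not pass (95% interval −0.66 to −0.11, adjusted p = 0.094). *ENO1*, enolase, fell by 0.44 (adjusted p = 0.0285), a call lost whichever replicate was left out (0.133 to 0.167). *PFKFB2* was called in all 3 of those fits, while *PFKM* was not without replicates 1 or 3 (up to 0.0937), nor *SLC2A3* without replicates 2 or 3 (up to 0.146).

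Targets of ATF4, the transcription factor of the amino acid response, were named in 11 of 26 cases, with 5 falls (beside 22.1% of all named genes), no rise and all 11 differences below 0 (median −0.41). *SLC7A5*, the light chain of the LAT1 leucine transporter, fell by 0.96 ± 0.11 (adjusted p = 0.000274), and *TRIB3*, a pseudokinase, fell by 0.67 (0.00268). The glutamine transporter *SLC1A5* fell by 0.47 (0.0223) and the mitochondrial folate enzyme *MTHFD2* by 0.41 (0.0473). Both of the last calls were lost whichever replicate was left out (adjusted p 0.0644 to 0.196 and 0.0843 to 0.284), while those of *SLC7A5* and *TRIB3* held in each of those fits. The list had 2 falls without replicate 1, without replicate 3 and with only the 6 arrays compared, and 3 without replicate 2 and without pairing. Of the unfolded protein response genes 3 of 19 were named, with 1 fall and 1 rise (22.1% and 25.9% of all named genes). *SEL1L*, of the ER-associated degradation complex, fell by 0.86 (adjusted p = 0.000662). *HERPUD1*, of the same pathway, rose by 0.45 (0.0293, and 0.0796 to 0.299 with a replicate left out). The chaperone *HSP90B1* differed by 0.08.

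Genes of the *BCL2* family with opposite roles in apoptosis rose together. *MCL1*, an anti-apoptotic member on which many myeloma cells depend, read 9.18, 9.72 and 9.45 with PIM447 and 10.44, 10.21 and 10.24 with PIM-Pd. The PIM-Pd arrays were the 3 highest of the series, and the rise was 0.84 ± 0.13 (1.79-fold, adjusted p = 0.00178). *BCL2*, also anti-apoptotic, rose by 0.59 ± 0.15 (0.0348), and so did the pro-apoptotic BH3-only gene *BMF*, by 1.13 ± 0.12 (2.18-fold, 0.000115). *BID*, a BH3-only gene that links death receptors to mitochondria, fell by 0.75 (0.0104). These 4 were the named members out of 15, with 3 rises and 1 fall, beside 25.9% and 22.1% of all named genes. *BMF* was called without each replicate in turn; *MCL1* was not without replicate 3 (adjusted p = 0.0514), *BID* not without replicates 1 or 3 (up to 0.167), and *BCL2* in none of those fits (0.0629 to 0.179).

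*PIM1*, which encodes a kinase that PIM447 inhibits, was lower in PIM-Pd. It read 9.13, 8.99 and 8.49 with PIM447 and 7.44, 7.90 and 7.13 with PIM-Pd. The groups did not overlap, replicate 3 was the lowest array of each, and the difference was −1.38 ± 0.15 (2.61-fold, adjusted p = 0.000138). In the PIM kinase and IL6-STAT3 list, with 4 of 15 named, the 3 other members rose (25.9% of all named genes did). These were *IL6ST*, the gp130 receptor chain through which IL6 signals (0.68 ± 0.11, adjusted p = 0.00228), *STAT3*, the transcription factor it activates (0.53 ± 0.14, 0.0343), and *SOCS2*, a feedback inhibitor of cytokine receptors (0.71 ± 0.17, 0.0245). *PIM1* was called without each replicate in turn, while *IL6ST* was not without replicate 3 (adjusted p = 0.0678), and *STAT3* and *SOCS2* in none of those fits (0.0554 to 0.263 and 0.0529 to 0.22). Of the NF-kB feedback genes 3 of 14 were named, and 2 rose (25.9% of all named genes did). *BIRC3*, which encodes cIAP2, rose by 1.12 ± 0.15 (adjusted p = 0.000567). The chemokine gene *CCL4* rose by 1.78 ± 0.35 (0.00828), with widely spread PIM-Pd arrays (6.94, 4.97 and 6.80). Its neighbour *CCL3* differed by −0.25. Both chemokine genes have near-identical copies that can share probes, so their values are uncertain. *CCL4* was not called without replicates 1 or 3 (up to 0.103).

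The largest falls were of other kinds of gene. *NUAK1*, an AMPK-related kinase, read 7.16, 7.81 and 7.22 with PIM447 and 4.87, 5.25 and 6.46 with PIM-Pd. Replicate 3 of PIM-Pd stood between the other arrays, with a pair difference of −0.76 against −2.29 and −2.55, and the difference was −1.87 ± 0.25 (3.64-fold, adjusted p = 0.000594). *ITGA8*, an integrin alpha chain, read 10.86, 10.72 and 10.75 and then 8.90, 9.36 and 8.93. The groups were over 1 log2 unit apart, with a difference of −1.71 ± 0.13 (adjusted p = 7.15e-06). *ETS1*, a transcription factor of lymphoid cells, read 5.86, 5.51 and 5.85 and then 3.96, 4.71 and 4.09, and fell by 1.49 (adjusted p = 0.000172). *CHCHD4*, the oxidoreductase of mitochondrial protein import, read 7.74, 7.16 and 7.62 and then 5.36, 6.35 and 6.40, with replicate 1 by far the lowest array in PIM-Pd. Its difference was −1.47 ± 0.24 (adjusted p = 0.00231). *AGMAT*, an enzyme of the ureohydrolase family, read 6.68, 6.83 and 6.88 and then 4.87, 5.63 and 5.51 (difference of −1.46 ± 0.16, adjusted p = 0.000138). *SCNN1G*, a subunit of the epithelial sodium channel, read 9.53, 8.63 and 8.78 and then 7.96, 7.35 and 7.27. Its arrays differed between replicates in both groups, but the pair differences were alike (−1.58, −1.29 and −1.51), and the difference was −1.46 ± 0.13 (adjusted p = 3.16e-05).

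Among the 12 largest falls were also *ST8SIA2*, a sialyltransferase (−1.43 ± 0.21), *STON2*, an endocytic adaptor (−1.42 ± 0.18), *PIM1* as above, *DDX10*, an RNA helicase (−1.38 ± 0.33), *CCDC110* (−1.35 ± 0.17) and *SLC27A2*, a very long-chain acyl-CoA synthetase (−1.34 ± 0.22). *DDX10* lost its call without replicates 1 or 2 (adjusted p up to 0.128) and *SLC27A2* without replicate 3 (0.0756), and the other 10 kept theirs. Adhesion genes, a list added later with 4 of 15 named, split evenly (25.9% of all named genes rose and 22.1% fell). *ITGA8* and *ITGB8* (−1.33 ± 0.27, adjusted p = 0.00912) fell, while the common integrin beta chain *ITGB1* (0.70 ± 0.15, 0.0108) and *CXCR4*, the receptor that holds plasma cells in the bone marrow (1.05 ± 0.12, 0.000218), rose. *ITGB8* was not called without replicate 3 (adjusted p = 0.126), nor *ITGB1* without replicates 2 or 3 (up to 0.103). Of surface antigens used as therapy targets, also added later with 3 of 12 named, 2 rose (beside 25.9% of all named genes). *GPRC5D* rose by 0.79 ± 0.12 (adjusted p = 0.00139) and *CD38* by 0.53 ± 0.10 (0.00553, and 0.0534 to 0.0863 with a replicate left out). *SLAMF7* differed by −0.15 without passing (0.602).

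**Figure D4:**
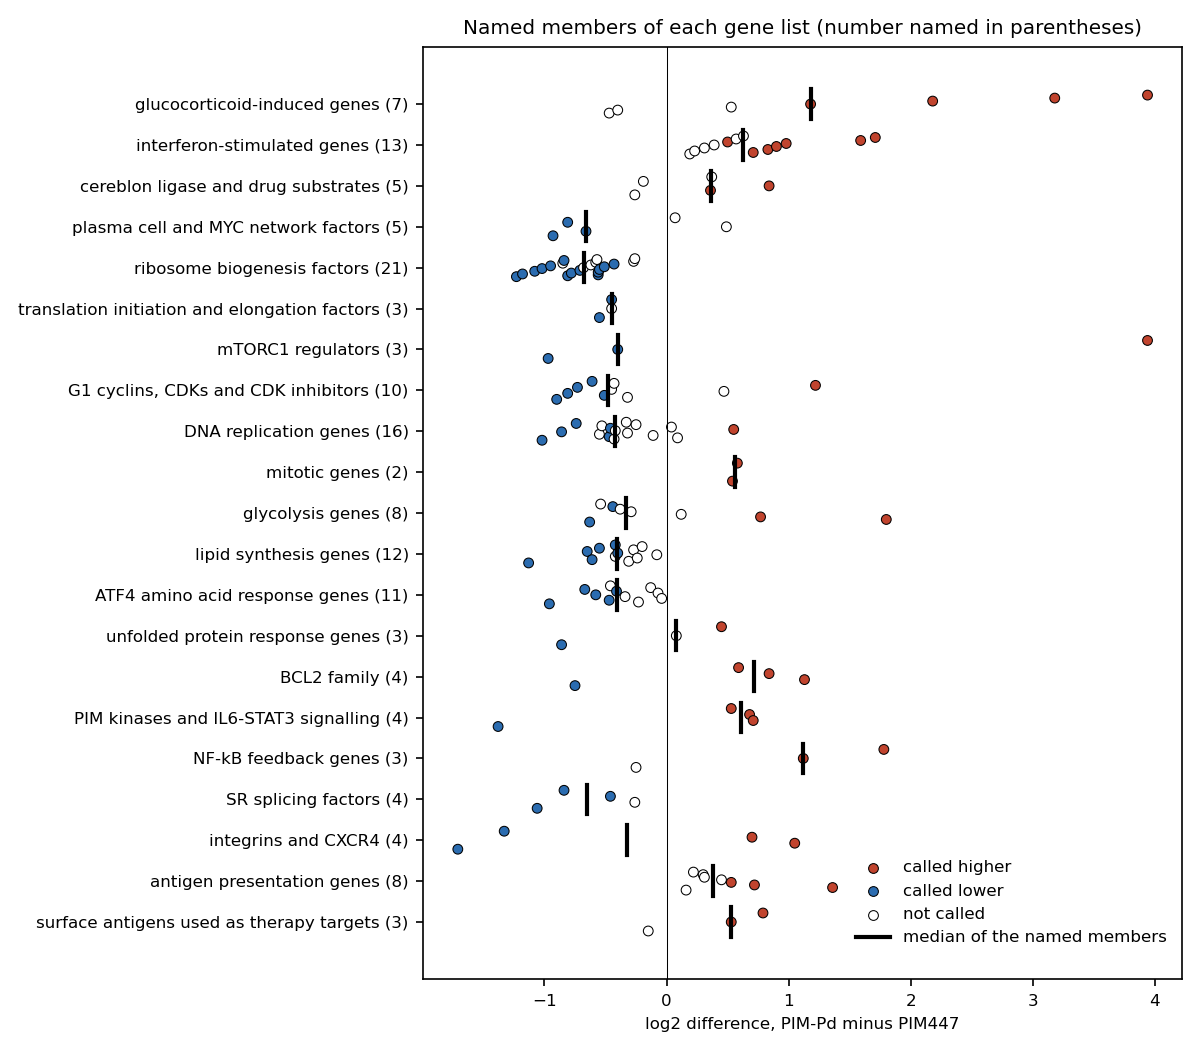
Each circle is a named member of a gene list, placed at its log2 difference between PIM-Pd and PIM; red circles were called higher, blue lower and white not called, and the vertical bar is the median of the named members. The named ribosome biogenesis, translation factor, SR splicing, lipid synthesis and ATF4 genes lie wholly below 0. The named interferon-stimulated, antigen presentation and mitotic genes lie wholly above 0. Only genes that the study had selected on these arrays for a change against Control have a name, so other members are not shown. *DDIT4* (3.94) stands at the far right of 2 lists.

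The same drug addition was measured without PIM447 as Pd minus Control, between 6 other arrays. All 12 arrays were fitted together, so both comparisons share 1 estimate of each gene's spread and their calls are not independent. PIM447 alone against Control, which shares the PIM arrays with the comparison above, gave no call at all in limma (0% of 17710 genes, smallest adjusted p 0.0719, with 1346 genes at an unadjusted p under 0.05), and 1 call each when fitted with array weights and with cyclic loess scaling. Pd against Control gave 1181 calls (6.67%), 738 higher and 443 lower. Of the 1262 genes called between PIM-Pd and PIM, 604 were also called in Pd minus Control with the same sign (47.9% of the former and 51.1% of the latter), 2 were called with the opposite sign, and 1191 (94.4%) had the same sign whatever their test. Of the 174 genes past 2-fold, 172 had the same sign and 152 were called. Across all 17710 genes the 2 effects correlated with r = 0.66, which is a description over genes that are not independent. The exposure times differed, at 15 h for Pd and 10 h against 24 h for the other comparison.

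The leading genes are given here with their values on both backgrounds. *DDIT4* rose by 3.94 ± 0.13 on top of PIM447 and by 4.02 ± 0.13 alone, with levels of 5.26 ± 0.14 in Control, 5.28 ± 0.13 with PIM447, 9.28 ± 0.07 with Pd and 9.22 ± 0.15 with PIM-Pd (SD, n = 3). *TSC22D3* rose by 3.18 and 2.49, and *FKBP5* by 2.18 and 1.73. *IRF4* fell by 0.93 and 1.10, and read 8.96 ± 0.07 with Pd and 8.94 ± 0.06 with PIM-Pd. The point estimates differed in both directions. They were further from 0 on top of PIM447 for *MYC* (−0.81 against −0.44), *CCND2* (−0.81 against −0.47), *MCL1* (0.84 against 0.47) and the median ribosome biogenesis factor (−0.68 against −0.48). They were nearer to 0 on top of PIM447 for *TXNIP* (1.18 against 1.75), *BMF* (1.13 against 1.90) and *HMGCS1* (−0.65 against −1.25). So were the medians of glucocorticoid-induced genes (1.18 against 1.73), lipid synthesis genes (−0.41 against −0.67), ATF4 targets (−0.41 against −0.71) and DNA replication genes (−0.42 against −0.60). The 2 glucocorticoid medians were values of different genes, *TXNIP* on top of PIM447 and *FKBP5* alone. Within that list *TSC22D3*, *FKBP5* and *KLF9* (0.53 against 0.32) were further from 0 on top of PIM447. *DDIT4*, *TXNIP*, *SGK1* and *ERRFI1* were nearer to it. PIM447 minus Control, which was called in no gene, was 0.26 for *TXNIP*, 0.60 for *BMF* and −0.55 for *HMGCS1*. It was −0.04 for *MYC*, −0.26 for *CCND2* and 0.02 for *MCL1*. Its list medians were −0.21 for ribosome biogenesis factors and −0.04 for glucocorticoid-induced genes. They were −0.43 for lipid synthesis genes, −0.38 for ATF4 targets and −0.37 for DNA replication genes. What part these shifts had in the estimates was not tested. In none of the genes of this paragraph was the difference between the effects called. Its 95% interval was −0.74 to 0.01 for *MYC*, −0.68 to 0.00 for *CCND2*, −0.02 to 0.78 for *MCL1* and −0.21 to 0.54 for *IRF4*.

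The difference between the effects was called for 2 genes in all (0.0113%), with 1210 at an unadjusted p under 0.05 and a median SE of 0.184. *EFEMP1*, an extracellular matrix protein, read 4.46, 4.13 and 4.44 in Control, 3.38, 3.79 and 3.83 with PIM447, 4.17, 4.06 and 4.16 with Pd and 4.93, 4.71 and 5.11 with PIM-Pd. It was lowest with PIM447 alone and highest with PIM-Pd, so that its effect was 1.25 ± 0.14 on top of PIM447 and −0.21 ± 0.14 alone, a difference of 1.46 ± 0.19 (adjusted p = 0.0498). *ARHGAP6*, a GTPase-activating protein, read 8.01, 7.86 and 7.85 in Control, 8.38, 8.12 and 8.20 with PIM447, 7.89, 7.85 and 7.84 with Pd and between 6.87 and 7.19 with PIM-Pd. Its PIM-Pd arrays lay below all other arrays, with effects of −1.22 ± 0.11 and −0.05 ± 0.11 and a difference of −1.17 ± 0.16 (adjusted p = 0.0498). Both calls were at the edge of the threshold, and without a replicate neither was made (adjusted p between 0.135 and 0.922). *EFEMP1* was a low gene, below the array medians (4.81 to 4.89) on every Control, PIM and Pd array.

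**Figure D5:**
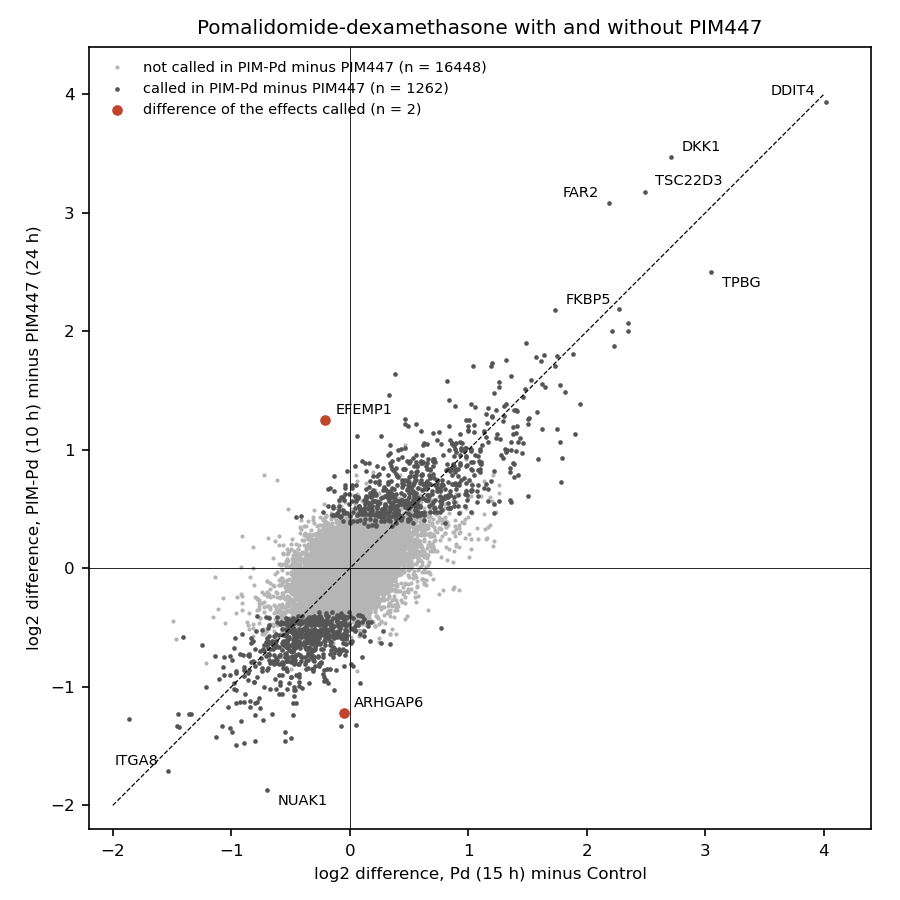
Each point is 1 of the 17710 genes, with the log2 difference of Pd minus Control on the x axis and of PIM-Pd minus PIM on the y axis; dark points were called in PIM-Pd minus PIM (1262), red points are *EFEMP1* and *ARHGAP6*, in which the difference between the effects was called, and the dashed line marks equal effects. Most dark points lie in the upper right and lower left quadrants, near the line, with *DDIT4* at 3.94 and 4.02.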

How the data were processed

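RNA from 12 cultures of MM.1S cells, 3 in each of 4 groups, was hybridised by the authors to Affymetrix Clariom S human arrays. The deposited values are log2 levels that the authors obtained with RMA in oligo (version 1.44.0) under R (version 3.5.0) with a custom BrainArray grouping of probes into Ensembl genes; the genome build is not given in the sources used here. Arrays carry no read depth, and their number limits the precision. No scanner file or scan batch was used here.

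From these values all 12 arrays were fitted gene by gene in limma 3.58.1 (R 4.3.3), with group and replicate number as terms and eBayes shrinkage (6 residual and 6.96 prior degrees of freedom), and p-values were adjusted by Benjamini-Hochberg over all 17710 genes. Calls had an adjusted p under 0.05, and a second count added the fold change of 2 that the study used. SAM, the test of the study, was not run. The pairing comes from the label of the replicate number. Residuals of PIM and PIM-Pd arrays of the same number correlated by 0.148, −0.101 and 0.247. The contrast of PIM-Pd minus PIM was set beside Pd minus Control and tested for their difference. Intervals are 95% intervals of the same fit, and each SE of a difference is the shrunken value of that fit.

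Symbols came from the Ensembl number and symbol pairs in the study's tables (names only), 64 of them updated through RefSeq. PIM2, PIM3, BCL2L11 and NR3C1, which the naming rule held, had no pair there and were not analysed here. The named genes were the 12 largest rises and 12 largest falls, the 4 called members with the smallest adjusted p in each list, 20 genes fixed by name, and those called in the difference of effects; any other member named was chosen after its values were seen. The comparison and the lists were chosen with earlier results of these data known, 4 lists (splicing factors, adhesion, antigen presentation, surface antigens) were added after values had been seen, and no test of a list was made. Promoters and coordinates are those of RefSeq (GRCh38.p14). Alternatives were no replicate block, a filter at the 40th percentile of mean level (10626 genes kept), trend and robust eBayes, array weights, median centring, cyclic loess, the 6 arrays alone and each replicate left out. Values of some genes are not reported here.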

Additional observations from a re-analysis of the deposited data

Results flagged for a closer look

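In 2 genes PIM-Pd minus PIM was called different from Pd minus Control, by the test of the difference itself. Drug and exposure time cannot be told apart in that test. For *EFEMP1* the effect was 1.25 on top of PIM447 and −0.21 alone, a difference of 1.46 on the log2 scale (limma adjusted p = 0.0498), and the pair differences with PIM447 were 1.55, 0.92 and 1.28. For *ARHGAP6* the effects were −1.22 and −0.05, a difference of −1.17 (limma adjusted p = 0.0498), with pair differences of −1.38, −0.93 and −1.33. The adjusted p of either difference was 0.0508 with low genes filtered out and at least 0.135 with a replicate left out, and the exposure times of all treated groups differed.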

How the results depend on the processing

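The number of genes called between PIM-Pd and PIM (1262) became 1003 without the replicate block, of which 983 were among the 1262, and lay between 1074 and 1374 under the filter on low values, trend and robust eBayes, array weights, median centring and cyclic loess. With only the 6 PIM-Pd and PIM arrays it was 559 (330 higher, 229 lower), 552 of them among the 1262; that fit has fewer arrays behind each gene's spread. With a replicate left out it was between 345 and 805, with 211 to 399 higher and 134 to 406 lower. Rises made up 52% of the calls, 49.7% under median centring, 55.2% under cyclic loess and up to 61.2% without replicate 3. The 2 calls of the difference between the effects became 0 in limma with the filter on low values (846 genes at an unadjusted p under 0.05), 0 with median centring (1183) and 0 with each replicate left out (800 to 1439), and were 2 or 3 elsewhere. Of the 92 genes followed by the naming rule, none changed sign under any of these alternatives. Without the replicate block 9 of them lost their call, with array weights 7 and with only the 6 arrays 26. In that 6-array fit falls went from 14 to 7 among ribosome biogenesis factors and from 5 to 1 among DNA replication genes, and no translation factor or mitotic gene was called. Of the 90 called, 46 kept it with each replicate left out in turn, 44 lost it in at least 1 of those fits and 19 in all 3. Of the 21 list medians, those of ribosome biogenesis factors (−0.96 without replicate 2), the BCL2 family (0.68 without replicate 1) and the PIM kinase and IL6-STAT3 list (0.45 without replicate 1) moved by more than the spread between pairs.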
